A study of Mus musculus with 12 samples.

Results

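Leukotriene synthesis was described through 5 genes, Alox5ap, Alox5, Lta4h, Ltc4s and Hpgds, of the 35275 genes in the expression table. Alox5ap was selected on measured values, since it had the strongest strain-by-treatment interaction in these data, and the other 4 were listed as enzymes around it. The values that chose Alox5ap, which are the interaction and the strain and treatment contrasts that make it up, are therefore given below without a test. Of the 5 genes, 4 passed the filter of a mean of at least 0.5 FPKM over all mice, and Ltc4s did not.

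RNA was sequenced from CD4+ T cells of 12 mice, with 1 library per mouse and 3 mice in each of 4 groups. B6 mice are C57BL/6J, and SLE123 mice carry on that background 3 congenic intervals of the lupus-prone NZM2410 mouse (Sle1, Sle2, Sle3), so that B6 is the background that all groups share. In each strain 3 mice were given anti-CD45RB (clone MB23G2, 5 injections of 100 μg to day 7) and 3 were untreated, with no control injection stated. The mice were females of 9 to 12 weeks per the study, and cells were purified by negative magnetic sorting. The methods also state a sort into CD25+ and CD25- cells, but the library titles name no such fraction. The titles of the SLE123 libraries read SLE_C and SLE, taken here as treated and untreated, and the other titles name no strain. The direction of every treatment difference in SLE123 rests on that reading.

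Leukotrienes are lipid mediators made from arachidonic acid, mainly in granulocytes, monocytes, macrophages, mast cells and basophils. Alox5ap (5-lipoxygenase activating protein, FLAP) is a nuclear membrane protein that presents arachidonic acid to Alox5, the 5-lipoxygenase, which makes leukotriene A4. Lta4h hydrolyses leukotriene A4 to leukotriene B4, an attractant of neutrophils and effector T cells, and Ltc4s joins it to glutathione to give leukotriene C4, the first of the cysteinyl leukotrienes. Hpgds belongs to the neighbouring branch and makes prostaglandin D2. Resting T cells are known to express little Alox5, while Lta4h is widely expressed.

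By the annotation of the GRCm38 genome (GENCODE M21), Alox5ap lies on the plus strand at chr5:149264767-149288153, and its transcripts have at most 5 exons. Alox5 lies on the minus strand at chr6:116410077-116461178 with at most 14 exons, Lta4h on the plus strand at chr10:93453411-93484875 with at most 19, Ltc4s on the minus strand at chr11:50236461-50238616, and Hpgds on the minus strand at chr6:65117293-65144908. Other annotated genes overlap Alox5ap (2 genes), Ltc4s (the antisense gene Gm26542) and Hpgds (the pseudogene Gm17147). The strand setting of the libraries and of the counting is not given in the sources used here, so reads from Ltc4s and Hpgds cannot be told apart from those of these neighbours where they overlap.

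The 250 bases before the start of Alox5 and of Lta4h are shown because these genes are consecutive enzymes of the pathway whose values differed most in kind, Alox5 with a low and variable level and Lta4h with a high and even one. Both sequences are from RefSeq (GRCm38.p6), written 5′ to 3′ on the strand of the gene, at chr6:116461179-116461428 (minus strand) and chr10:93453146-93453395 (plus strand). Capitals mark the GC box GGGCGG.
Alox5: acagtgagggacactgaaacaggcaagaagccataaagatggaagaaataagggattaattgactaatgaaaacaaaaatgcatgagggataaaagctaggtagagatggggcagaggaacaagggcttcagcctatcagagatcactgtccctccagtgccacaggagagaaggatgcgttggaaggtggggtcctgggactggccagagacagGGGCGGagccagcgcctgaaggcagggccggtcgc
Lta4h: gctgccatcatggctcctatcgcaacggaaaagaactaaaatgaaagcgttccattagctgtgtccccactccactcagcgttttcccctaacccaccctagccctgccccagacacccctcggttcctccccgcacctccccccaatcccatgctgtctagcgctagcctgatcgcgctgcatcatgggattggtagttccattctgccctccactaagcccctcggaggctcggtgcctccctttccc
The windows of 4 of the 5 genes were in the RefSeq table. They were searched on both strands for the GC box, for the cAMP response element TGACGTCA, for its half-site TGACG, which also lies inside the full element, and for the TATA box TATAAA. The single match was the GC box of Alox5, which begins 35 bases before the start. Among the same windows of 250 bases at all 32851 promoters, 32.7% held the GC box, 1.55% the full element, 17.8% the half-site and 12.4% the TATA box. GC content was 52.8% for the Alox5 sequence, with 5 CpG dinucleotides, and 58.8% for the Lta4h sequence, with 11, beside medians of 52.4% and 6 over all promoters.

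Libraries held 13562933 to 23641603 fragments. All 9 T cell markers were above 0 in every library, and their summed level was 3216 to 4412 FPKM (fragments scaled to transcript length and library depth), with Cd4 at 237 to 327 FPKM. The libraries also differed in ways their labels do not explain. Hepatocyte transcripts summed to 43.6 to 51.6 FPKM in the 6 B6 libraries and to 48.2 FPKM in SLE123 anti-CD45RB replicate 1. In the other 5 SLE123 libraries they summed to at most 0.511 FPKM. Their presence thus nearly followed strain, the labels name no batch, and the part of such a library difference in the strain comparisons below was not tested. SLE123 untreated replicate 3 had the highest share of fragments on immunoglobulin genes (12.2%), against 2.51% to 6.76% in the other SLE123 libraries and 0.0895% to 0.336% in B6, and the highest sums of B cell (277 FPKM) and of monocyte and macrophage markers (136 FPKM). For part of the results in SLE123 the value without 1 of these 2 libraries is given, and values printed without it can also depend on them.

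On the length-adjusted FPKM scale the 5 genes covered a wide range of levels. Lta4h was the most abundant, with a mean of 57.1 FPKM over the 12 mice, followed by Alox5ap with 9.21 FPKM. Hpgds and Alox5 were low, with means of 0.708 and 0.662 FPKM, and Ltc4s was close to absent with 0.0912 FPKM. The depth behind these values was 24603 fragments for Lta4h, 1648 for Alox5ap, 537 for Hpgds, 495 for Alox5 and 15 for Ltc4s in all libraries together.

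**Figure D1:**
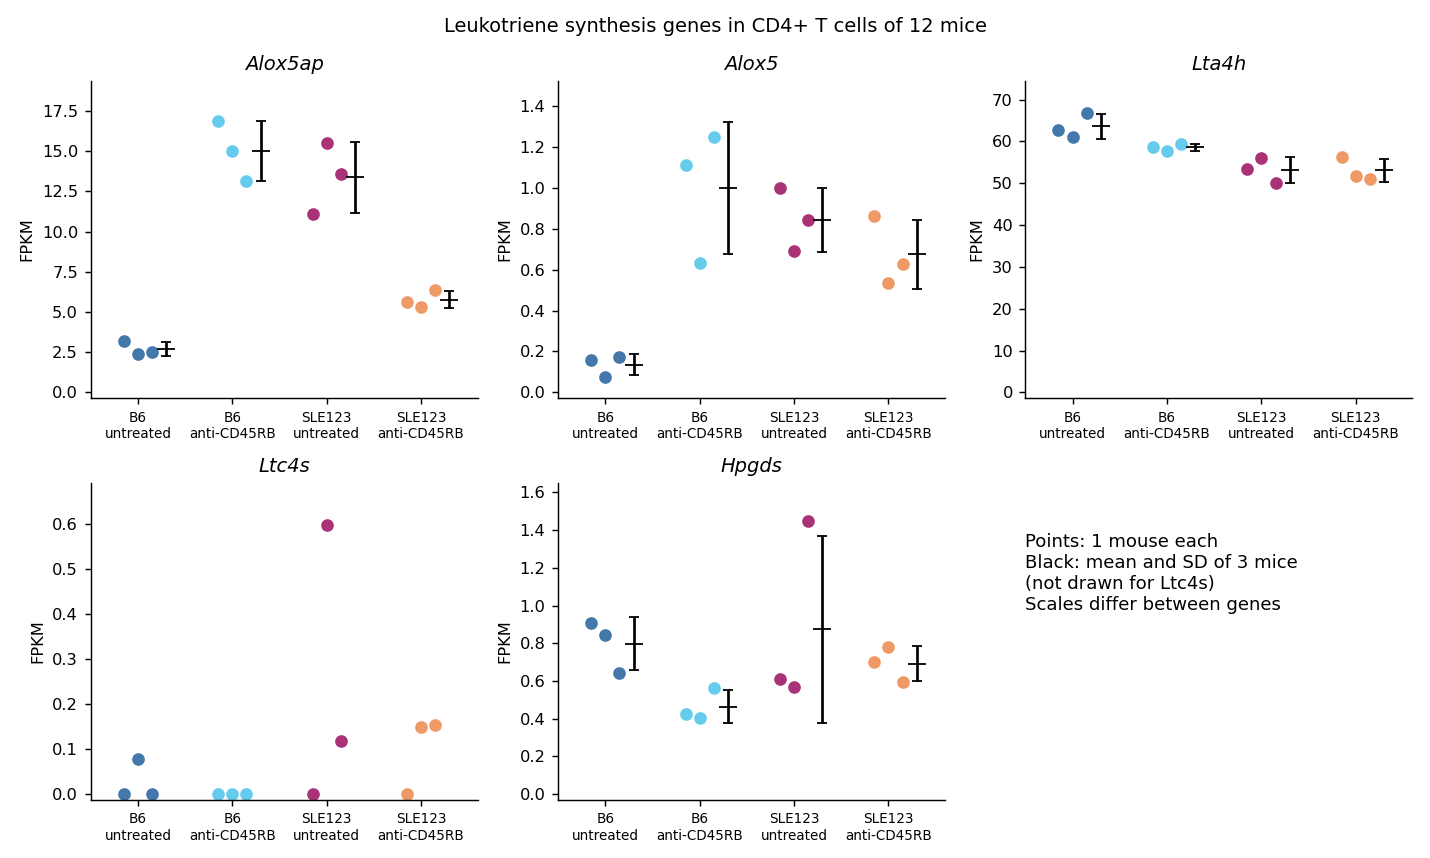
FPKM (vertical axis, a scale of its own for each gene) of the 5 genes in each of the 12 mice (points) by strain and treatment, with the mean and SD of 3 mice in black except for Ltc4s. Alox5ap stood at 2.40 to 3.20 FPKM in untreated B6 mice and at 13.1 to 16.9 FPKM after anti-CD45RB, and the order was the opposite in SLE123.

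Alox5ap, which supplies the substrate to Alox5, was low in untreated B6 mice and high after anti-CD45RB, whereas in SLE123 it was high in untreated mice and lower after treatment. In untreated B6 mice it was 3.20, 2.40 and 2.48 FPKM, and in B6 mice given anti-CD45RB it was 16.9, 14.98 and 13.1 FPKM. In untreated SLE123 mice it was 11.1, 15.5 and 13.6 FPKM, and in treated SLE123 mice it was 5.65, 5.29 and 6.34 FPKM. Each treated B6 mouse was above each untreated B6 mouse, and each treated SLE123 mouse was below each untreated SLE123 mouse. From lowest to highest the group means were 2.69 ± 0.441 FPKM (SD, n = 3) in untreated B6, 5.76 ± 0.530 in treated SLE123, 13.4 ± 2.22 in untreated SLE123 and 14.99 ± 1.88 in treated B6. Neighbouring groups in this order did not overlap, with the exception of untreated SLE123 and treated B6, whose values did.

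The size of these differences is a description, since they are the contrasts for which Alox5ap was chosen. The mean of treated B6 mice was 5.57-fold that of untreated B6 mice, a log2 fold change of 2.11 (SE 0.117) on the log2(FPKM + 1) scale on which all fold changes below are given. In SLE123 the mean of untreated mice was 2.32-fold that of treated mice, a log2 fold change of -1.08 (SE 0.131) for treatment. The interaction, obtained by subtracting the B6 treatment effect from that of SLE123, was -3.19 (SE 0.185). Between strains, the log2 difference of SLE123 from B6 was 1.96 (SE 0.144) without treatment and -1.24 (SE 0.1003) with it. A pattern of higher values without overlap in treated B6 mice and lower values without overlap in treated SLE123 mice was shared by 1.86% of the 13115 genes that passed the filter. Without SLE123 untreated replicate 3 the treatment difference in SLE123 was -1.07, and without SLE123 anti-CD45RB replicate 1 it was also -1.07.

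Averages over strain or treatment were fitted to the same 12 values with the same residual spread as the interaction, and are also given for Alox5ap without a test. Averaged over the strains, Alox5ap was higher after anti-CD45RB by a log2 of 0.52. That average combines higher values after treatment in B6 with lower ones in SLE123. Averaged over treatment, Alox5ap was higher in SLE123 by 0.36. On values rescaled to TPM (each library scaled to one common total of transcripts) this strain average was 0.11.

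**Figure D2:**
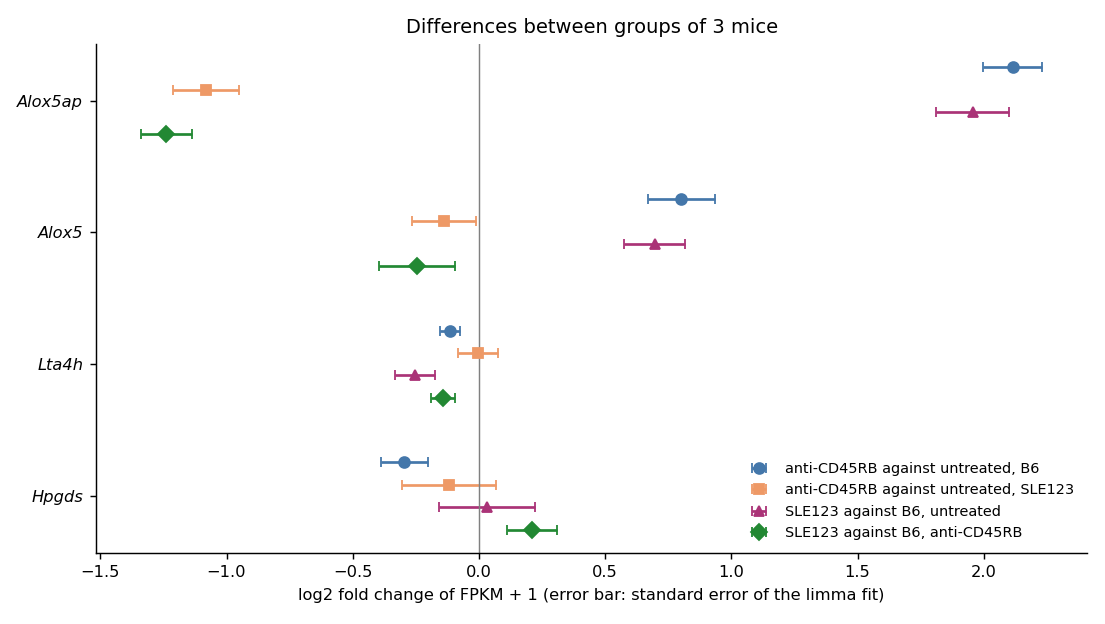
Log2 fold change of FPKM + 1 (horizontal axis) with its standard error for the 4 genes that passed the filter, in 4 comparisons of 3 mice with 3. Alox5ap and Alox5 stood at 2.11 and 0.80 for anti-CD45RB in B6, and all values of Lta4h and Hpgds lay between -0.30 and 0.21.

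Alox5, the 5-lipoxygenase itself, was higher after anti-CD45RB in B6 and was higher in untreated SLE123 than in untreated B6 mice. Its values were 0.156, 0.0773 and 0.174 FPKM in untreated B6 mice and 1.11, 0.632 and 1.25 FPKM after treatment in B6. In SLE123 they were 0.998, 0.688 and 0.840 FPKM without treatment and 0.864, 0.534 and 0.625 FPKM with it. The 3 untreated B6 mice were below all 9 other mice, and the 3 other groups overlapped one another. The fragments behind the untreated B6 values were 9, 5 and 10, so that these are the least precise values of the gene.

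The mean of Alox5 in treated B6 mice was 7.35-fold that of untreated B6 mice. On the log2 scale, where the added 1 shrinks changes of low genes, the difference was 0.80 (SE 0.132, limma adjusted p = 0.0122). Alox5 was the only one of the 3 genes tested (Alox5, Lta4h, Hpgds) to be called in B6, a comparison in which 14.9% of 13115 genes were called. The call was lost without B6 untreated replicate 4, with a log2 fold change of 0.76 (limma adjusted p = 0.0543), and the difference was 2.83 (limma adjusted p = 0.00171) when recovered fragments were tested with limma-voom. In SLE123 the difference was -0.14 (SE 0.127, limma adjusted p = 0.657), where none of the 3 genes and 0.0381% of all genes were called. Without SLE123 anti-CD45RB replicate 1 it was -0.22 (limma adjusted p = 0.806).

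Between strains, Alox5 was higher in untreated SLE123 than in untreated B6 mice by 0.70 (SE 0.120, limma adjusted p = 0.00357), with means of 0.842 and 0.136 FPKM, in a comparison that called 42.9% of genes. It stayed called without SLE123 untreated replicate 3 (0.69, limma adjusted p = 0.00769). After treatment the strains differed by -0.25 (SE 0.149, limma adjusted p = 0.208), where 52.1% of genes were called. This difference was called only when B6 anti-CD45RB replicate 3, the lowest treated B6 mouse, was left out (-0.385, limma adjusted p = 0.0484). Without SLE123 anti-CD45RB replicate 1 it was -0.33 (limma adjusted p = 0.139).

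The order of the group means of Alox5 was the same as for Alox5ap, at 0.136, 0.674, 0.842 and 0.997 FPKM. Untreated B6 and treated SLE123 mice did not overlap (two-sided exact permutation p = 0.1, the smallest that 3 mice against 3 allow). Treated and untreated SLE123 mice (exact permutation p = 0.3), and untreated SLE123 and treated B6 mice (exact permutation p = 0.5), were not told apart. The interaction was -0.94 (SE 0.189) and is given without a test. Averaged over all 12 mice, the strain difference of Alox5 was 0.22 (limma adjusted p = 0.0590), where 60.6% of all genes were called, and the treatment difference 0.33 (limma adjusted p = 0.0908), where 3.24% were. The strain average was called without B6 anti-CD45RB replicate 5 (0.27, limma adjusted p = 0.0355) or SLE123 untreated replicate 2 (0.26, limma adjusted p = 0.0450), and the treatment average without B6 anti-CD45RB replicate 3 (0.40, limma adjusted p = 0.0371).

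Across the 12 mice Pearson's r of Alox5ap with Alox5 on log2 values was 0.84 and Spearman's rho 0.73. This is a description of points that share groups and libraries. For Alox5ap the values of r were -0.46 with Lta4h and -0.29 with Hpgds, and those of rho were -0.39 and -0.64.

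Lta4h, which makes leukotriene B4, was at a high and nearly even level in all mice, and its mean in SLE123 was 0.837 of that in B6 without treatment and 0.905 of it with treatment. Untreated B6 mice had 62.8, 61.1 and 66.8 FPKM and treated B6 mice 58.8, 57.7 and 59.4 FPKM. Untreated SLE123 mice had 53.5, 56.1 and 50.0 FPKM and treated SLE123 mice 56.3, 51.8 and 51.0 FPKM. All 6 B6 mice were above all 6 SLE123 mice, and in B6 the 3 untreated mice were above the 3 treated ones. Averaged over treatment, the strain difference was -0.20 (SE 0.0424, limma adjusted p = 0.00185), and it was called whichever of the 12 mice was left out.

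Within treatment groups, Lta4h differed between strains by -0.25 (SE 0.0785, limma adjusted p = 0.0352) in untreated mice and by -0.14 (SE 0.0460, limma adjusted p = 0.0370) in treated mice. The first call was lost without B6 untreated replicate 3 (limma adjusted p = 0.108), 4 (0.0859) or 5 (0.140) or SLE123 untreated replicate 3 (0.0746). The second was lost without any of the B6 anti-CD45RB replicates 1, 3 and 5 (limma adjusted p = 0.0892, 0.0604 and 0.109) or without SLE123 anti-CD45RB replicates 2 and 3 (0.116 and 0.112). Both were also lost when fragments on immunoglobulin genes were left out of the scaling, with differences of -0.14 (limma adjusted p = 0.152) and -0.082 (limma adjusted p = 0.110). Anti-CD45RB changed Lta4h in B6 by -0.11 (SE 0.0395, limma adjusted p = 0.0976) and in SLE123 by -0.0037 (SE 0.0800, limma adjusted p = 0.988), and neither was called. The interaction was 0.11 (SE 0.0848).

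Ltc4s, the leukotriene C4 synthase, gave 15 fragments in all, spread over 5 libraries. It was at 0 in the 3 treated B6 mice and in 2 of the 3 untreated B6 mice, the third having 0.0772 FPKM from 1 fragment. Untreated SLE123 mice had 0, 0.598 and 0.118 FPKM, from 0, 8 and 2 fragments, and treated SLE123 mice had 0, 0.148 and 0.152 FPKM, from 0, 2 and 2 fragments. A count of 0 allows up to 3 fragments, which for this gene is 0.249 to 0.309 FPKM in the treated B6 libraries. All values except that of SLE123 untreated replicate 2 were below the level of 3 fragments in their own library, and no difference between groups was detectable at this depth.

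Hpgds, the prostaglandin D2 synthase of blood cells, did not pass the test in any comparison. Untreated B6 mice had 0.909, 0.843 and 0.644 FPKM and treated B6 mice 0.424, 0.404 and 0.564 FPKM, so that the treated mice were below the untreated ones without overlap. In SLE123 the values were 0.609, 0.570 and 1.45 FPKM without treatment and 0.701, 0.779 and 0.596 FPKM with it. The highest value was that of SLE123 untreated replicate 3, the library with the most B cell and macrophage transcripts.

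In B6 the treatment difference of Hpgds was -0.30 (SE 0.0935, limma adjusted p = 0.0782), opposite in sign to those of Alox5ap and Alox5. With limma-voom on recovered fragments it was -0.77 and was called (limma adjusted p = 0.0478). In SLE123 the difference was -0.12 (SE 0.187, limma adjusted p = 0.808), and 0.089 (limma adjusted p = 0.761) without untreated replicate 3. Between untreated strains it was 0.03 (SE 0.190, limma adjusted p = 0.905), and -0.18 (limma adjusted p = 0.285) without that library. Between treated strains it was 0.21 (SE 0.0990, limma adjusted p = 0.119), and 0.20 (limma adjusted p = 0.172) without SLE123 anti-CD45RB replicate 1. The averages over 12 mice were 0.12 for strain (limma adjusted p = 0.367) and -0.21 for treatment (limma adjusted p = 0.363), and the interaction was 0.18 (SE 0.221).

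The groups of 3 did not overlap, in either direction, for all of Alox5, Lta4h and Hpgds by treatment in B6 and for none of them in SLE123, beside 38.0% and 19.7% of all genes. Between strains they did not overlap for 2 of these 3 genes both in untreated mice (Alox5 and Lta4h, beside 58.6% of all genes) and in treated mice (Lta4h and Hpgds, beside 61.8%).

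Genes whose pattern was most like that of Alox5ap were ranked by Pearson's r of log2(FPKM + 1) over the 12 mice, among 11145 named genes that passed the filter. Among the first 5 were Tyrobp (0.96), the adaptor DAP12 of myeloid and NK cells, Cxcr4 (0.95), the chemokine receptor for CXCL12, Gas7 (0.94), and Lpcat2 (0.92), which makes platelet-activating factor. Since the 12 mice form 4 groups, these values mostly describe group means. With TPM, 3 of these 4 were again among the first 5, and with Spearman's rank correlation 1 of the 4 was.

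Tyrobp had 4.51, 1.27 and 2.75 FPKM in untreated B6 mice and 28.0, 24.3 and 21.2 FPKM in those given anti-CD45RB. In SLE123 it had 11.3, 14.5 and 22.8 FPKM without treatment and 6.74, 6.78 and 5.70 FPKM with it. As for Alox5ap, treated mice were above untreated ones in B6 and below them in SLE123, without overlap. Cxcr4 followed the same order of groups at a far higher level and with smaller steps, with means of 66.5 ± 7.03, 88.1 ± 4.54, 103 ± 4.10 and 103 ± 4.29 FPKM (SD, n = 3) in untreated B6, treated SLE123, untreated SLE123 and treated B6 mice. The corresponding means were 0.152, 0.720, 1.17 and 1.34 FPKM for Gas7 and 0.141, 0.439, 0.818 and 0.751 FPKM for Lpcat2.

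The gene most like Alox5 was Hdc (r = 0.96), the histidine decarboxylase that makes histamine and a marker of basophils and mast cells. Its means were 0.291 FPKM in untreated B6, 1.12 in treated SLE123, 1.41 in untreated SLE123 and 1.64 in treated B6 mice. Zbtb7a (r = 0.93), a transcription factor, and Cyp11a1 (r = 0.92), the first enzyme of steroid synthesis, came next. With TPM, 2 of these 3 genes were again among the first 3 for Alox5, and r of Zbtb7a was 0.39. With Spearman's rank correlation 1 of the 3 was. For Lta4h the genes were Rps24-ps3, Ggt5 and Srsf5 (r = 0.96 each), of which none was among its first 3 with TPM. For Hpgds they were Itga9 (r = 0.89), Gpatch2 (0.82) and Cerk (0.80), of which 1 was among its first 3 with TPM and 0 with Spearman's rank correlation.

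**Figure D3:**
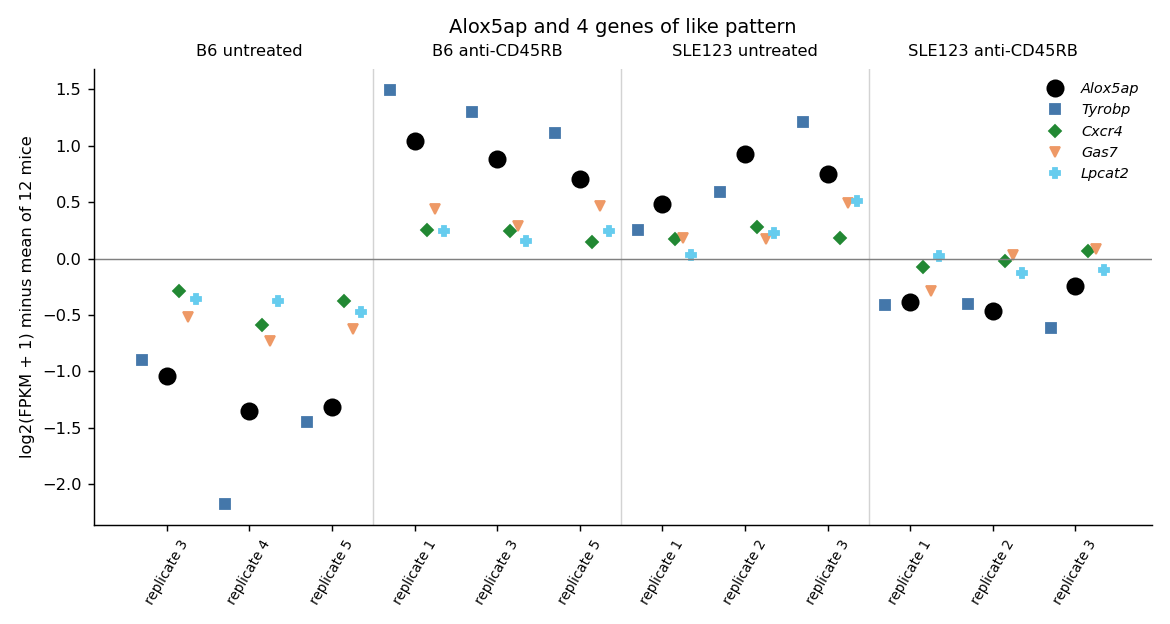
Log2(FPKM + 1) of Alox5ap (black) and of 4 of the genes most like it in each of the 12 mice (horizontal axis, by group and replicate), after subtraction of each gene's mean over the mice. All 5 genes were below their mean in the 3 untreated B6 mice and above it in the 3 treated B6 and 3 untreated SLE123 mice.

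Markers of several other leukocytes also differed between the groups. In these bulk samples fewer cells of a type and less RNA per cell cannot be told apart. The 12 monocyte and macrophage markers summed to 12.8 to 19.9 FPKM in untreated B6, 45.6 to 120 in treated B6, 41.9 to 136 in untreated SLE123 and 28.2 to 36.3 in treated SLE123 mice, so that untreated B6 mice were lowest, treated SLE123 mice next, and the other groups overlapped at the top, as for Alox5ap. In B6, where 8.74% of all genes were called higher and 6.12% lower, 3 of the 8 tested monocyte and macrophage markers, 6 of 8 neutrophil, 6 of 10 basophil and mast cell, 3 of 6 eosinophil, 5 of 7 dendritic cell, 5 of 8 NK and innate lymphoid cell and 7 of 8 B cell markers rose after anti-CD45RB and none fell, whereas 5 of 9 T cell markers fell and none rose. In SLE123, where 0.0229% of all genes were called lower, 2 of 10 basophil and mast cell markers and 1 of 6 eosinophil markers fell, and none of the 8 tested monocyte and macrophage or 8 neutrophil markers was called. The filter used the mean over all 12 mice, so a marker can have passed it only through the group in which it was high. Such markers were not set apart in these counts. The part of the markers in the result was not tested.

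Granulocyte markers differed between the strains. The 11 neutrophil markers summed to 4.14 to 7.29 FPKM in untreated B6, 20.9 to 41.2 in treated B6, 92.7 to 139.8 in untreated SLE123 and 64.3 to 81.7 in treated SLE123 mice. The 10 basophil and mast cell markers summed to 15.6 to 17.9, 36.4 to 49.4, 121.8 to 139.1 and 57.5 to 64.2 FPKM in the same order. The 8 eosinophil markers summed to 1.82 to 2.11, 4.44 to 10.04, 51.1 to 85.7 and 12.01 to 18.4 FPKM. In untreated mice 8 of 8 tested neutrophil and 9 of 10 basophil and mast cell markers were called higher in SLE123. The share over all genes was 22.8%. Markers that passed the filter only through the group in which they were high were not set apart here either. In treated mice 2 of 8 neutrophil markers were called higher there, and 3 of 10 basophil and mast cell markers higher and 1 lower. Over all genes 29.6% were called higher there and 22.5% lower, so that the counts called higher were near the share of all genes. Single markers differed in order. Mcpt8, a protease of basophils, was at 4.14 to 7.93 FPKM in treated B6 and 26.0 to 30.9 FPKM in untreated SLE123 mice, whereas Hdc, of the same list, was at 1.34 to 1.98 FPKM in treated B6 and 1.25 to 1.53 FPKM in untreated SLE123 mice. Dendritic cell markers summed to 49.4 to 59.3 and 76.3 to 102 FPKM in untreated and treated B6 and to 102.4 to 156.3 and 143.1 to 151.7 FPKM in untreated and treated SLE123 mice. NK and innate lymphoid cell markers summed to 232.5 to 275.4, 303.5 to 395.5, 134.5 to 203.2 and 180.2 to 225.5 FPKM in that order, and their part in the Alox5ap values, like that of the granulocyte markers, was not tested. No gene of the monocyte and macrophage, neutrophil, or basophil and mast cell lists was at 0 in every mouse of a group, although Ly6g, the surface antigen of neutrophils, did not exceed 0.114 FPKM in any library.

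**Figure D4:**
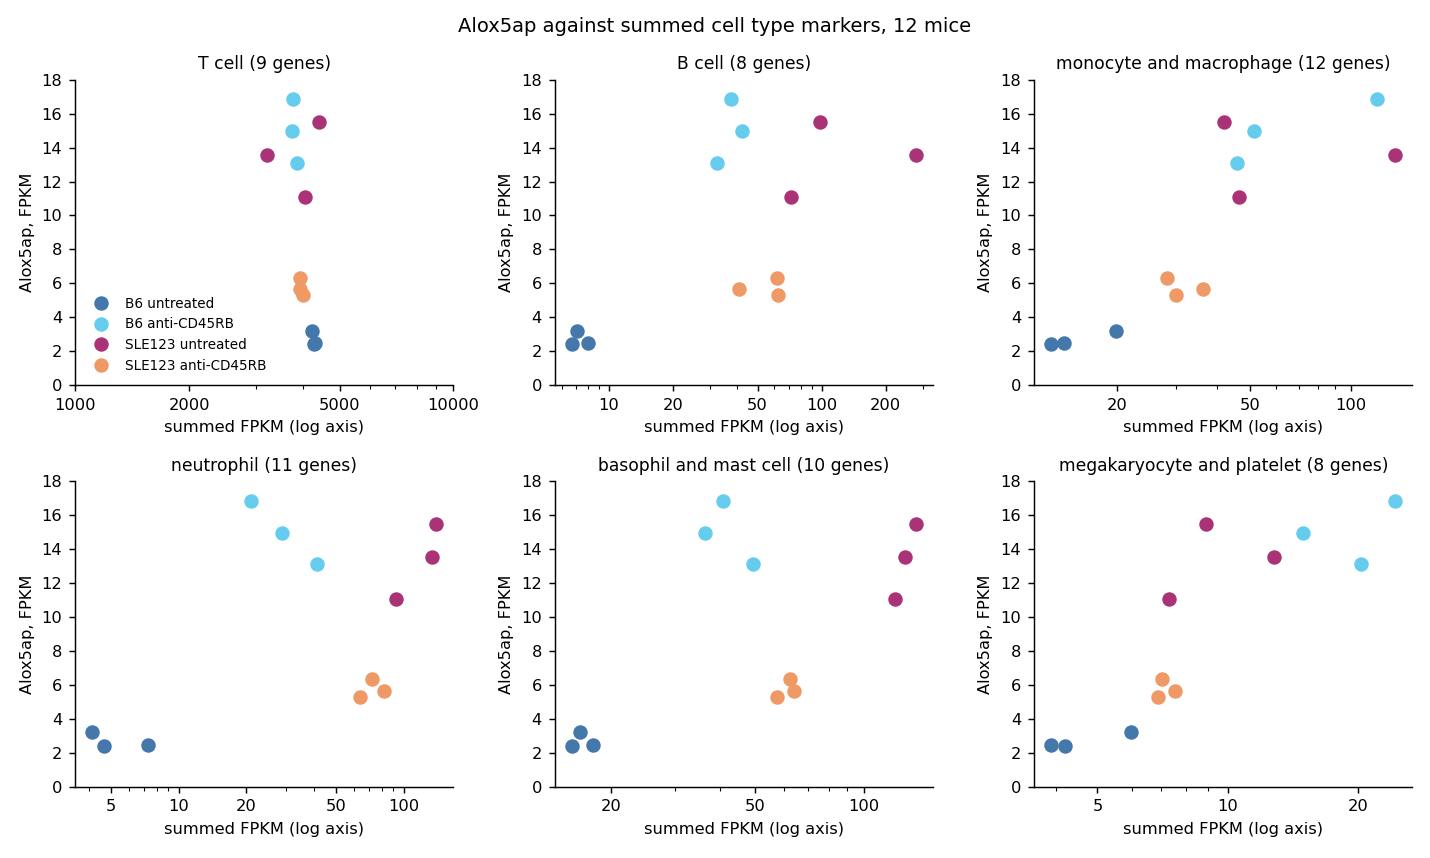
Alox5ap in FPKM (vertical axis) against the summed FPKM of 6 marker lists (horizontal log axis) in the 12 mice, coloured by group. T cell sums varied from 3216 to 4412 FPKM, and treated B6 mice had neutrophil sums of 20.9 to 41.2 FPKM against 64.3 to 81.7 in treated SLE123 mice.

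Other genes of eicosanoid metabolism were taken from a list of 61, of which 34 passed the filter. In B6, anti-CD45RB raised 6 and lowered 4 of the 34, with a median log2 fold change of 0.06 beside -0.0024 over all genes and beside calls of 8.74% of all genes as higher and 6.12% as lower. In SLE123 none of the 34 was called by limma, beside 0.0381% of all genes, with a median of -0.03 beside 0.04 over all genes. Without B6 anti-CD45RB replicate 5, B6 untreated replicate 3 or B6 untreated replicate 4, 5 of the 34 were called in B6 in each case. The filter admitted Alox12, Pla2g4b and Ptgs1 only through the group in which each was highest, and without these 3 genes 5 of 31 were called higher and 4 lower in B6.

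Among receptors, Ltb4r1, the high-affinity receptor for leukotriene B4, had the same directions as Alox5ap. It had 0.445, 0.397 and 0.624 FPKM in untreated B6 and 1.06, 1.88 and 1.32 FPKM in treated B6 animals. In SLE123 the untreated mice had 1.26, 1.11 and 1.36 FPKM and the treated mice 1.06, 0.799 and 1.02 FPKM. It rose in B6 by 0.69 (SE 0.139, limma adjusted p = 0.0219) and was called in neither direction in SLE123 (-0.20, limma adjusted p = 0.501), although there too the groups did not overlap. The B6 call was lost without B6 anti-CD45RB replicate 5 (limma adjusted p = 0.0597) or without B6 untreated replicate 3 (0.0728) or 4 (0.0823). Cysltr2, a receptor for cysteinyl leukotrienes, was higher in SLE123 than in B6, by 1.07 (limma adjusted p = 0.00462) in untreated and 1.04 (limma adjusted p = 5.60e-04) in treated mice. Without treatment it ranged from 2.72 to 3.50 FPKM in B6 and from 5.35 to 9.18 FPKM in SLE123 mice. With treatment the ranges were 3.85 to 5.86 FPKM in B6 and 10.6 to 11.1 FPKM in SLE123 mice. The treatment difference of Cysltr2 in B6, 0.47, was not called (limma adjusted p = 0.0665). Cysltr1, Ltb4r2 and Gpr17 did not pass the filter, with at most 0.351, 0.0432 and 0.0114 FPKM in any mouse, and Oxgr1 was at 0 in all mice.

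Of the genes that convert or inactivate leukotrienes, Cyp4f18, the cytochrome P450 that oxidises leukotriene B4, had the largest rise in B6. It was at 0.182, 0 and 0.219 FPKM in untreated and 3.21, 2.37 and 2.48 FPKM in treated B6 mice (1.70, SE 0.123, limma adjusted p = 7.73e-04), and at 3.04 to 5.83 FPKM in all 6 SLE123 mice, where treatment made a difference of -0.12 (limma adjusted p = 0.861). Untreated SLE123 mice exceeded untreated B6 mice by 2.23 (limma adjusted p = 1.50e-04). Both γ-glutamyltransferases of the list, which turn leukotriene C4 into leukotriene D4, were called in B6 in opposite directions. Ggt1 rose by 0.86 (limma adjusted p = 0.00275) and Ggt5 fell by 0.58 (limma adjusted p = 0.00233). Both were lower in SLE123 than in B6, by -1.01 and -1.60 without treatment and by -1.23 and -0.91 with it (largest limma adjusted p = 0.00848). With any mouse left out, the strain difference of Ggt1 lay between -1.15 and -0.75 without treatment and between -1.44 and -1.08 with it. That of Ggt5 lay between -1.73 and -1.37 without treatment and between -1.03 and -0.83 with it.

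Mgst2, a microsomal glutathione transferase that like Ltc4s can make leukotriene C4, fell after treatment in B6. It was at 23.0 to 28.1 FPKM in untreated B6 and 18.9 to 19.3 FPKM in treated B6 mice (-0.43, SE 0.0742, limma adjusted p = 0.0145). The call was lost without B6 anti-CD45RB replicate 5 (limma adjusted p = 0.0519) or B6 untreated replicate 3 (0.0534) or 4 (0.0543). SLE123 mice had less Mgst2, at 12.4 to 16.3 FPKM without and 12.8 to 13.7 FPKM with treatment. Mgst1 and Mgst3 were called by treatment in neither strain. Their means in untreated and treated mice were 1.05 and 1.34 FPKM in B6 and 1.48 and 0.982 FPKM in SLE123 for Mgst1, and 1.88 and 2.60 FPKM in B6 and 2.04 and 1.53 FPKM in SLE123 for Mgst3. Pla2g4a, the cytosolic phospholipase that releases arachidonic acid, was likewise not called by treatment, and was higher in SLE123, by 0.56 (limma adjusted p = 0.0156) in untreated mice. That call was lost without B6 untreated replicate 5 (limma adjusted p = 0.0581).

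On the prostaglandin side and among other lipoxygenases, Alox12, the platelet 12-lipoxygenase, had 0.0826, 0.0737 and 0.207 FPKM in untreated and 2.11, 1.12 and 1.33 FPKM in treated ones of B6. In SLE123 it stayed between 0.198 and 0.343 FPKM. Its mean was 1.52 FPKM in treated B6 mice and 0.236 FPKM over the other groups, so that it passed the filter through treated B6 mice alone and its difference of 1.15 in B6 is given without a test. The 8 megakaryocyte and platelet markers summed to 14.95 to 24.4 FPKM in treated B6 mice and to at most 12.8 FPKM in every other mouse, and their part in the result was not tested. Ptgir, the prostacyclin receptor, was higher in treated mice, averaged over the strains, by 0.49 (limma adjusted p = 0.00326). It ranged from 2.02 to 2.38 FPKM in untreated and from 3.05 to 3.86 FPKM in treated B6 mice. In SLE123 its ranges were 0.861 to 1.04 FPKM in untreated and 1.58 to 1.87 FPKM in treated mice. In B6 alone its rise of 0.52 (limma adjusted p = 0.0185) was lost without B6 anti-CD45RB replicate 1 or 5 or B6 untreated replicate 4 or 5 (largest limma adjusted p = 0.0718). Ptgs1, a cyclooxygenase, was not called by treatment in B6 (0.35, limma adjusted p = 0.0555). Its mean was 0.899 FPKM in untreated SLE123 mice and 0.368 FPKM over the other groups, so that it passed the filter through untreated SLE123 mice alone. Its treatment difference of -0.30 in SLE123 is therefore given without a test. Ptgs2, the inducible form, did not exceed 0.215 FPKM.

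**Figure D5:**
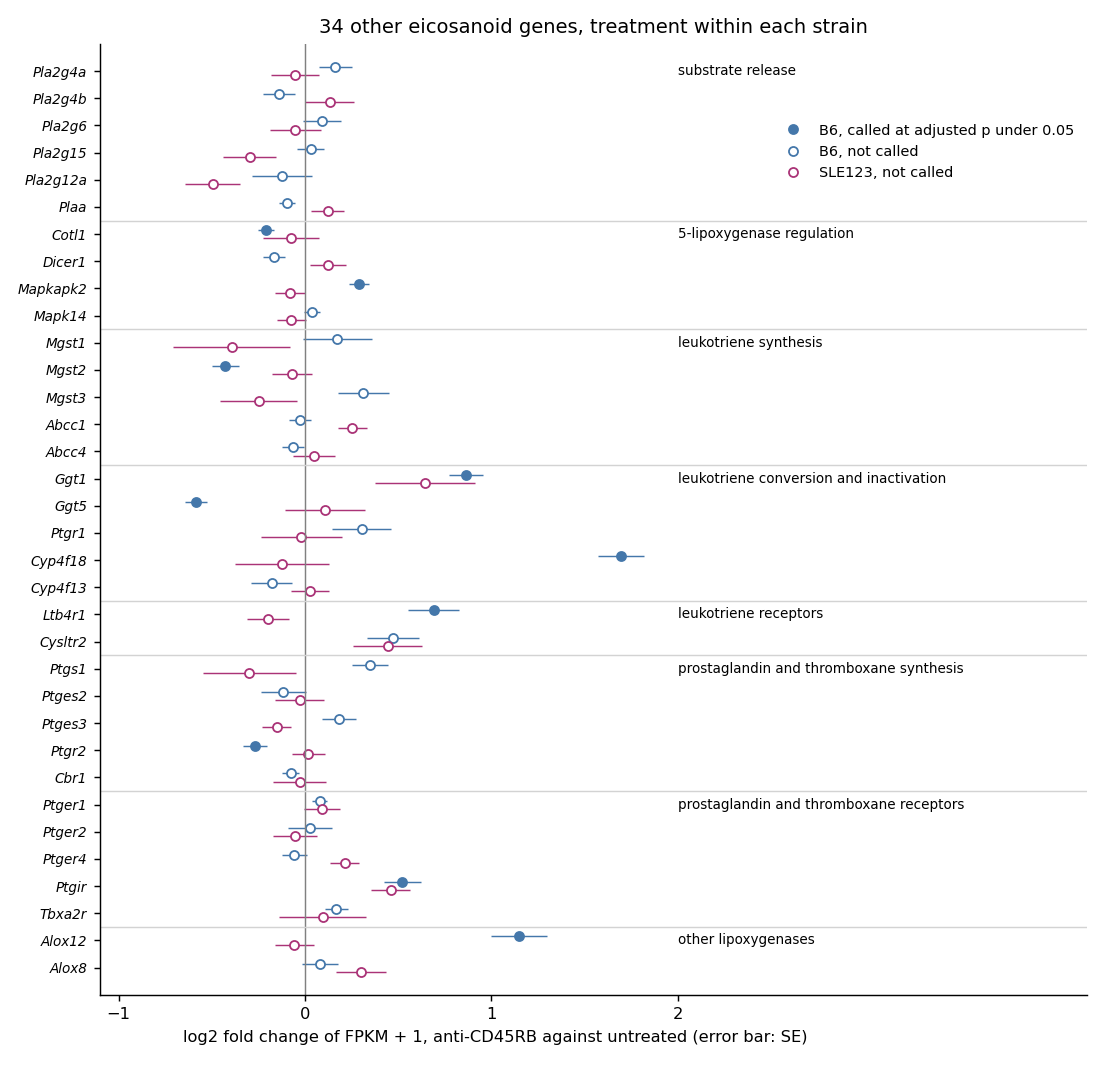
Log2 fold change of FPKM + 1 for anti-CD45RB against untreated (horizontal axis, with standard error) of 34 other eicosanoid genes, in B6 (blue) and SLE123 (purple), with filled points for genes called by limma at an adjusted p under 0.05. The 10 filled points are all of B6, from Cyp4f18 at 1.70 to Ggt5 at -0.58. They include Alox12, which passed the filter through treated B6 mice alone and whose filled point is not read as a test.

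Between the strains, 21 of the 34 genes were called in untreated mice (14 higher and 7 lower in SLE123) and 23 in treated mice (12 higher and 11 lower). Over all genes, 22.8% were called higher and 20.1% lower in untreated SLE123, and 29.6% higher and 22.5% lower in treated SLE123 mice. The 21 include Ptgs1 and the 23 include Alox12, which the filter admitted only through their highest group. Without the 3 genes so admitted, 20 of 31 were called in untreated mice (13 higher and 7 lower). In treated mice 22 of 31 were then called (12 higher and 10 lower). Ptger2, a receptor for prostaglandin E2, had the largest difference among those called in both, at 2.27 to 3.27 FPKM in the 6 B6 mice and 10.5 to 13.9 FPKM in the 6 SLE123 mice. Its log2 difference was 1.91 (limma adjusted p = 3.01e-05) in untreated and 1.83 (limma adjusted p = 7.07e-05) in treated mice. Tbxa2r, the thromboxane receptor, was lower in SLE123 by -1.12 and -1.19 (largest limma adjusted p = 0.00594), and Alox8 was higher by 0.90 and 1.12 (largest limma adjusted p = 8.46e-04). The split between higher and lower depended on the scaling. With TPM, under which the median of all genes in untreated mice was -0.34 in place of -0.03, 8 genes were higher and 13 lower in SLE123 without treatment, and of the 21 called genes Ptger4 and Ptges3 reversed. In treated mice, where that median was -0.12 in place of 0.03, TPM gave 5 higher and 11 lower, with none of the 23 reversed. Without SLE123 untreated replicate 3, 16 genes were called between untreated strains, and without SLE123 anti-CD45RB replicate 1, 22 between treated strains.

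Averaged over all 12 mice, 24 of the 34 genes were called between strains (14 higher and 10 lower in SLE123) and 4 between treatments, all higher after anti-CD45RB. Over all genes, 31.5% were called higher and 29.1% lower between strains, and 2.66% higher after anti-CD45RB. These 4 were Ggt1, Cyp4f18, Ptgir and Alox12, of which Alox12 had passed the filter through treated B6 mice alone. Without the 3 genes admitted only through their highest group, 23 of 31 were called between strains (14 higher and 9 lower) and 3 between treatments. Of the 34 genes, leaving out SLE123 untreated replicate 3 raised the number called between treatments to 7. Leaving out B6 anti-CD45RB replicate 1 or B6 untreated replicate 4 lowered it to 2.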

How the data were processed

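RNA-Seq libraries of 12 mice were grouped by their titles, which hold a short code and a replicate number. The code SLE_C was taken as SLE123 with anti-CD45RB, and SLE as untreated SLE123. The codes of the other libraries, for anti-CD45 and for control, name no strain and were taken as B6. Each mouse was a separate animal. The authors deposited FPKM values per Ensembl gene and library. The submitters' processing notes name CASAVA 1.8, STAR and mm10, and the counting program and annotation are not given in the sources used here. The authors tested pairs of conditions with DESeq2, which was not run here.

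All 35275 genes were read, and 97.8% of their identifiers were in GENCODE M21, which gave symbols. The values of 100% of the 23230 genes above 0 came to whole fragment numbers after division by what a single fragment was worth in that library (tolerance 0.02), and these fragments were used for voom and for depth (13562933 to 23641603 per library, median 16827791). On a transcript of 2000 bases, 3 fragments equal 0.0634 to 0.111 FPKM. Such limits cover counting error only.

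A mean of 0.5 FPKM or more was reached by 13115 genes, which were tested on log2(FPKM + 1) with limma 3.58.1 (R 4.3.3; lmFit, eBayes with trend), with Benjamini-Hochberg adjustment over all of them and a call at an adjusted p under 0.05. Comparisons of 2 groups used their 6 mice, and averages and the interaction all 12. No p-value is given for Alox5ap, whose averages had been planned as tests but share the residual of the interaction that chose it. For single values, exact permutation tests (two-sided) were used. Fits were tested on simulated data. The settings tried beside these were TPM, median centring, limma-voom on recovered fragments, a pseudocount of 0.1, no filter or one at 1 FPKM, fits on all 12 mice, a block for the replicate number, each mouse left out, and, chosen after seeing the data, scaling without immunoglobulin fragments.

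Genes, lists and markers were chosen with earlier results of these data known. Named were the 5 genes, from the eicosanoid list up to 6 called genes per comparison with the largest change, the leukotriene receptors, Mgst1, Mgst2, Mgst3, Pla2g4a, Ptgs1 and Ptgs2, the genes most like each of the 5 (leaving out unnamed predicted genes, antigen receptor segments and a gene that is not reported here), and defining markers that were highest or at 0. Ly6g, Mcpt8, Ptger4 and Ptges3 were named after their values were seen.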

Additional observations from a re-analysis of the deposited data

Results flagged for a closer look

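Alox5ap was higher in every treated than in every untreated B6 mouse and lower in every treated than in every untreated SLE123 mouse. The differences between these separate groups of mice thus had opposite signs in the strains. Treatment made a log2 difference of 2.11 in B6 and -1.08 in SLE123, and the second less the first was -3.19. This difference was not tested, since it is the value for which the gene was chosen.

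Ltb4r1, the receptor for leukotriene B4, met the same condition. Its treatment effect was 0.69 in B6 and -0.20 in SLE123, a difference of -0.89, which was not tested. In SLE123 the treated mice reached at most 1.06 FPKM and the untreated mice were at 1.11 FPKM or more.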

How the results depend on the processing

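The direction of Alox5ap in each comparison was the same under every alternative run, and its interaction lay between -3.72 and -3.04, and between -3.31 and -3.09 with any mouse left out. On values with a pseudocount of 0.1, its log2 difference was 2.44 for treatment in B6, 2.27 for untreated strains and -3.63 for the interaction. With limma-voom these were 2.46, 2.35 and -3.72, beside -1.27 for treatment in SLE123 and -1.39 for treated strains. With TPM, Alox5ap differed by -0.90 for treatment in SLE123, 1.63 between untreated strains, -1.41 between treated strains, and 0.11 for the strain average.

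Alox5 was called in the strain average with a pseudocount of 0.1 (0.77), with limma-voom (1.04) and without immunoglobulin fragments in the scaling (0.26), and in the treatment average with a pseudocount of 0.1 (0.95) and limma-voom (1.22). Hpgds was called in B6 with limma-voom (-0.77). Lta4h lost its calls between strains without immunoglobulin fragments (-0.14 untreated, -0.082 treated) and, in treated mice, with all 12 mice in one fit (-0.14, limma adjusted p = 0.0775). With TPM, 3 uncalled differences changed sign, namely Lta4h for treatment in SLE123 (0.19) and in the treatment average (0.0303), and Hpgds between untreated strains (-0.14). The cause was not tested.

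Replicate numbers are shared by titles only. Same-numbered mice had correlations of their deviations from -0.161 to 0.267, so the numbers were not taken to pair mice, and untreated strains share 1 number and gave no such fit. With the replicate number as a block, calls were lost for Alox5 in B6 (0.72, limma adjusted p = 0.194) and Lta4h between treated strains (-0.12, limma adjusted p = 0.256), and the averages of Alox5ap, given without a test, were 0.21 for strain and 0.48 for treatment. The block left 0 calls among the eicosanoid genes in B6 and in the treatment average and 14 between treated strains. Over all genes it left 0 calls in B6 with limma (2466 genes at an unadjusted p under 0.05, and 2704 called by limma-voom without a block), 3414 between treated strains and 67 in the treatment average.

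Leaving out 1 mouse gave Alox5 0.71 to 0.94 for treatment in B6, -0.385 to -0.15 between treated strains, 0.16 to 0.27 in the strain average and 0.29 to 0.40 in the treatment average. Lta4h lay between -0.29 and -0.21 for untreated strains, between -0.19 and -0.12 for treated strains and between -0.047 and 0.035 for treatment in SLE123. Hpgds lay between -0.23 and 0.089 for treatment in SLE123 and between -0.18 and 0.145 for untreated strains. Calls among the 34 eicosanoid genes ranged from 5 to 9 in B6 and from 2 to 7 in the treatment average. Calls over all genes ranged from 675 to 1393 in B6 (1948 with all 6 mice), 1 to 7 in SLE123 (5), 3672 to 6469 between untreated strains (5621) and 196 to 1117 in the treatment average (425). They were 815 in B6 with all 12 mice in one fit, and in SLE123 they were 53 in that fit, 25 with TPM, 3 with limma-voom and 1 without a filter. Low fragment numbers limit Alox5, Hpgds and Ltc4s.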
